A study of Mus musculus with 21 samples.

Results

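The comparison set CD45+Ter119+CD71+ erythroid cells from the spleens of mice with anemia against myeloid-derived suppressor cells (MDSC), which were sorted by CD11b and Gr1 from spleens of tumor-bearing mice. All libraries with these labels were used, 3 for each group, which made 6 of the 21 libraries of the series. The mice of both groups were of the strain C57BL/6. The remaining libraries of the series, 3 for each group as well, held CD45- cells of the same Ter119 and CD71 sort from mice with anemia, and CD45+ and CD45- cells of that sort from tumor-bearing and neonatal mice. The labels give no age, no cause of the anemia, no tumor, and no statement on pooled animals. The groups differ both in the status of the mice and in the lineage of the cells, so that the part of anemia and the part of lineage in any difference cannot be told apart. Nothing in the labels says that the 3 libraries of a group came from separate animals, so the p-values reflect only how far the libraries of a group differ, and that spread may be technical.

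Ter119 is a surface antigen of erythroid cells, and CD71 is the transferrin receptor, through which erythroid precursors take up the iron for haem. CD45 is the leukocyte phosphatase that erythroid cells lose as they mature, and the adult mouse spleen becomes a site of red cell production when anemia raises the demand. MDSC are immature granulocytic and monocytic cells that build up in tumor-bearing hosts and restrain T cells through arginine and nitric oxide metabolism, reactive oxygen and other mediators. The series was designed around CD45+ erythroid progenitors of tumor-bearing mice, which its design text describes as suppressive. The comparison described here asks which genes separate CD45+ erythroid cells of mice with anemia from a myeloid suppressor population.

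Expression values below were obtained by unlogging the deposited log2 values. The sources used here leave their scale unnamed, so levels are compared between libraries and not between genes. Fold changes are log2 differences of group means of log2(value + 1), anemia CD45+ minus MDSC, which understate the change of low genes. Values summed to between 227961 and 244065 in the anemia CD45+ libraries and between 272983 and 291444 in the MDSC libraries. Read depth is unknown. Across genes, the anemia CD45+ libraries correlated with one another at a Pearson r of 0.88 to 0.957 and the MDSC libraries at 0.938 to 0.958. A pair with one library from each group correlated at 0.647 to 0.743, highest for the pair of replicates 3. Anemia CD45+ replicate 3 stood apart from the other 2 libraries of its group, with Hba-a1 (an alpha globin) at 14307, 9260.5 and 959 and S100a8 (a calcium-binding protein of neutrophils) at 247, 129.7 and 913 in anemia CD45+ replicates 1 to 3. For 39 named genes that passed, leaving this library out moved the fold change by over 1.5-fold, and the values without it are given below for several of them. The labels name the tissue as spleen, although their extraction protocol mentions retinas. Of the retina genes only Rom1 reached the level needed for a test, with a log2 fold change of -0.17 that did not pass (adjusted p = 0.62, limma).

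Of 8 tested genes listed for the antigens of the sorts and related surface markers, Ptprc, Tfrc and Ly6a were higher and Itgam, Ly6c1, Ly6c2 and Ly6g lower in anemia CD45+ cells, while Kit did not pass (0.25, adjusted p = 0.41, limma). No gene stood for Ter119 in this list. Ptprc, which encodes CD45, stood at 322, 372 and 477 in anemia CD45+ cells and at 143, 185 and 222 in MDSC. Every anemia CD45+ library lay above every MDSC library, and Ptprc passed in limma over all tested genes (log2 fold change 1.09, SE 0.23, adjusted p = 0.0081). Tfrc, which encodes CD71, was at 115, 149.98 and 62.4 in anemia CD45+ cells and 54.3, 36.0 and 47.5 in MDSC. The Tfrc groups did not overlap (log2 fold change 1.16, SE 0.34, adjusted p = 0.028), but the gene no longer passed without anemia CD45+ replicate 1 (1.08), anemia CD45+ replicate 2 (0.89), MDSC replicate 2 (1.00) or MDSC replicate 3 (1.19), or under median-ratio scaling (0.84). Itgam, the CD11b chain, was at 11.996, 10.4 and 48.0 in anemia CD45+ cells and 196, 269.6 and 252 in MDSC. It was lower in every anemia CD45+ library (log2 fold change -3.62, SE 0.53, adjusted p = 0.0018), with -4.29 without anemia CD45+ replicate 3. The Gr1 antigens are Ly6g and Ly6c. Ly6c2 was at 17.5, 15.793 and 14.008 in anemia CD45+ cells and 95.3, 116 and 142 in MDSC, without overlap (log2 fold change -2.81, SE 0.20, adjusted p = 8.0e-05). Ly6g was at 0.793, 1.18 and 5.76 in anemia CD45+ cells and 8.33, 7.81 and 37.8 in MDSC, and it did not pass when either anemia CD45+ replicate 1 (-1.94) or 2 (-2.08), or MDSC replicate 1 (-2.63) or 3 (-1.61), was left out (log2 fold change -2.30, SE 0.71, adjusted p = 0.035 with all 6 libraries, and -2.89 without anemia CD45+ replicate 3). Ly6a, which encodes Sca-1, is not a gate antigen here and was at 48.8, 28.1 and 33.0 in anemia CD45+ cells against 1.02, 1.4016 and 1.01 in MDSC (log2 fold change 4.10, SE 0.24, adjusted p = 4.6e-05). Reads of near-identical Ly6 genes may have been divided between them.

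Of the 10286 genes tested with limma, 4537 passed an adjusted p of 0.05 (44.1%). Among these, 2959 (28.8%) were higher in anemia CD45+ cells and 1578 (15.3%) were lower. The difference was at least 2-fold for 1867 of the higher and 1091 of the lower genes, and at least 16-fold for 80 and 71. The groups did not overlap for 5824 genes (56.6%). Among genes that averaged 10 or more in the higher group, the 12 largest gains included Cd74, Cd79a, Cr2, H2-Eb1, Fcmr, H2-Aa, H2-Ob, Cd22, Hba-a1, Ms4a1 and Gimap4, which apart from an alpha globin and a lymphocyte GTPase are genes of B cells or of class II antigen presentation. On the lower side, with symbols that are only a clone or locus number left out, the 12 largest were Stfa2, Stfa1, Stfa3, Cd177, Ngp, Ctsg, Chil3, Lipg, Ms4a3, Anxa1, Lcn2 and S100a8, mostly genes of granule proteins, stefins and other products of granulocytes. Among the symbols left out, BC100530, a copy of the stefin family with which reads may be shared, had a log2 fold change of -8.70.

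**Figure D1:**
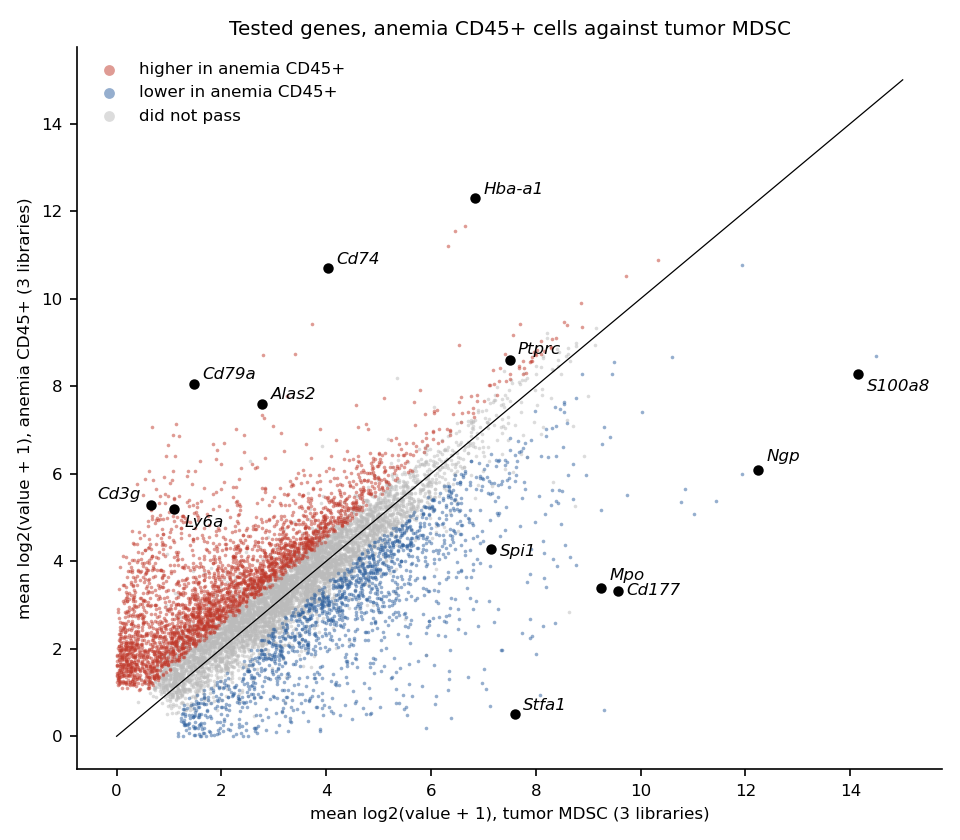
Mean log2(value + 1) of every tested gene, with the 3 anemia CD45+ libraries on the vertical axis and the 3 MDSC libraries on the horizontal axis. Genes above the line of equality were higher in anemia CD45+ cells, where Cd74 and Cd79a lie, and genes below it were lower, where Ngp and Cd177 lie.

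The balance of higher and lower genes depended on the scaling between libraries. As deposited, the median log2 fold change of all tested genes was 0.21, and 65.2% of the calls were higher. With median-ratio scaling the median was -0.07, with 2033 genes higher and 2402 lower. With quantile normalization it was 0.00, with 2261 higher and 2086 lower. With the haemoglobin genes left out and the remaining sums made equal it was 0.55, with 4508 higher and 1044 lower. Small fold changes are therefore to be read against these shifts, and the counts of listed genes below against the 28.8% of all tested genes that were higher and the 15.3% that were lower.

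Genes of red cell production were higher in anemia CD45+ cells. All 4 adult globin genes tested passed (median log2 fold change 5.05), as did 17 of 20 red cell membrane genes (median 3.49), 9 of 20 genes of haem synthesis and iron (median 1.32) and 8 of 14 erythroid transcription factors (median 1.82). No tested member of these lists passed in the lower direction, except 1 haem and iron gene under quantile normalization and 1 erythroid transcription factor without anemia CD45+ replicate 3. The lists do not hold every gene of these pathways. Alas1, which encodes another form of the enzyme that begins haem synthesis, was outside them and passed as lower (log2 fold change -4.01). Hbb-bs, a beta globin, was at 7968, 5124 and 807 in anemia CD45+ cells and at 257, 121 and 31.0 in MDSC. Its groups did not overlap (log2 fold change 5.0, SE 1.02, adjusted p = 0.0071), the fold change was 5.99 without anemia CD45+ replicate 3, 4.34 without anemia CD45+ replicate 1, 5.68 without MDSC replicate 1 and 4.17 without MDSC replicate 3, and MDSC replicate 3 was the lowest of the 6. Hba-a1 had 14307, 9260.5 and 959 in anemia CD45+ cells and 458, 206 and 14.8 in MDSC (log2 fold change 5.46, SE 1.44, adjusted p = 0.02). It did not pass without anemia CD45+ replicate 1 (4.70) or 2 (5.02), and the fold change was 6.65 without anemia CD45+ replicate 3, 6.46 without MDSC replicate 1 and 4.03 without MDSC replicate 3. Without anemia CD45+ replicate 1 or without replicate 2, only 2 of the 4 globin genes passed. Hba-a1 and Hba-a2, like Hbb-bs and Hbb-bt, are near-identical copies between which reads may have been divided.

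Alas2 encodes the erythroid form of the enzyme that begins haem synthesis. It was at 419, 292 and 58.6 in anemia CD45+ cells against 15.6, 8.08 and 1.14 in MDSC. Every anemia CD45+ library was above every MDSC library (log2 fold change 4.82, SE 0.94, adjusted p = 0.0058), with 5.68 without anemia CD45+ replicate 3, 5.46 without MDSC replicate 1 and 3.98 without MDSC replicate 3. Slc11a2, the iron transporter of the endosome, rose by 2.35 and the glycophorin gene Gypc by 1.97 on the log2 scale in anemia CD45+ cells. The ferritin genes did not pass, with Ftl1 at 0.99 (adjusted p = 0.072, limma) and Fth1 at 0.18 (adjusted p = 0.79). The ferroportin gene Slc40a1, which lets iron out of cells, did not pass either (-0.46, adjusted p = 0.23). The count of haem and iron genes was 15 without anemia CD45+ replicate 3. It was 6 when anemia CD45+ replicate 1 or 2, or MDSC replicate 2 or 3, was left out. The count of membrane genes was 11 without anemia CD45+ replicate 2, 11 without MDSC replicate 2 and 9 without MDSC replicate 3.

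Among the transcription factors of the lineage, Klf1, which activates the beta globin and red cell membrane genes, was at 19.8, 21.7 and 5.99 in anemia CD45+ cells and 0.899, 0.882 and 0.195 in MDSC. All anemia CD45+ libraries were higher (log2 fold change 3.20, SE 0.47, adjusted p = 0.0019), although replicate 3 was the lowest of them. Gata1, the factor required for red cell maturation, was at 12.3, 10.5 and 4.26 in anemia CD45+ cells and 1.43, 0.747 and 0.137 in MDSC, again without overlap (log2 fold change 2.46, SE 0.42, adjusted p = 0.0036). Its cofactor Zfpm1 (FOG-1) had a log2 fold change of 3.01, the fetal globin repressor Bcl11a, also expressed by B cells, 2.42, and the LIM-domain cofactor Ldb1 1.27. Epor, the erythropoietin receptor, was at 12.955, 11.7 and 1.68 in anemia CD45+ cells and 0.701, 0.248 and 0.103 in MDSC (log2 fold change 2.56, SE 0.62, adjusted p = 0.014), with 3.33 without anemia CD45+ replicate 3 and no call without MDSC replicate 3 (2.42). Of the 12 tested genes of the erythropoietin receptor, STAT5 and its feedback, 2 rose, 2 fell and 8 did not pass (median 0.53). The number that rose was 4 without anemia CD45+ replicate 3, and 1 without anemia CD45+ replicate 1, anemia CD45+ replicate 2 or MDSC replicate 3, or under median-ratio scaling. The genes that fell were Id1, an inhibitor of differentiation factors (-3.40), and Spi1, described with the myeloid factors below.

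Because Alas2 had the largest gain among the haem and iron genes, its promoter is shown first, with those of Cd177 and Cd79a, which had the largest change among the secondary and tertiary granule genes and among the B cell genes. The windows run from 250 bases before to 50 bases after the RefSeq start of transcription, on the gene's strand, in build GRCm38.p6, which is not the build of the deposited values. They lie at chrX:150547167-150547466 (plus strand) for Alas2, chr7:24760262-24760561 (minus strand) for Cd177 and chr7:24897247-24897546 (plus strand) for Cd79a. Capitals mark matches, on either strand, to 4 short motifs, none of which contains another. The motif searched for the B cell factor EBF1 was CCCNNGGG, and for PU.1 it was GAGGAAGT. For the C/EBP factors of granulocytes it was TTGCNNAA. For the GATA factors of red cell precursors it was AGATAA.
Alas2 promoter: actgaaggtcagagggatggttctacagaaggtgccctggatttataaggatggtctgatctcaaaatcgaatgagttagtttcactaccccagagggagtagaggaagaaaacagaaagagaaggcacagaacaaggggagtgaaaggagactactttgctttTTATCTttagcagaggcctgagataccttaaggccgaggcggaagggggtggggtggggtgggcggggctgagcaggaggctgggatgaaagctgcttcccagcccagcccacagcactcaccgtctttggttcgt
Cd177 promoter: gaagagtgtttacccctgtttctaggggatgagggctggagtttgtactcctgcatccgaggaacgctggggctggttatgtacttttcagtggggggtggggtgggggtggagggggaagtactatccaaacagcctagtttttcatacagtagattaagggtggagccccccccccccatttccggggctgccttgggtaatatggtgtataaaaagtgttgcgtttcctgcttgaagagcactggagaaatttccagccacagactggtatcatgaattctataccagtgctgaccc
Cd79a promoter: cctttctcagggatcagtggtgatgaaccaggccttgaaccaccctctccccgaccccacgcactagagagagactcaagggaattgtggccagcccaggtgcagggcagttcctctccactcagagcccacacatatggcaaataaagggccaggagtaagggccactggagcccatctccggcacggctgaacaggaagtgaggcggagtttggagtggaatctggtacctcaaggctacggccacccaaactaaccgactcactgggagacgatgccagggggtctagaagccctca
The Alas2 window held 1 match, to the GATA motif read on the reverse strand as TTATCT, with its first base at position -86 from the start. The windows of Cd177 and Cd79a held none of these letters. Of all 32851 RefSeq mouse windows of this length, 11.2% held the GATA motif, 13.7% the EBF1 motif, 10.8% the C/EBP motif and 3.20% the PU.1 motif. Among 13 haem and iron genes with a window 3 held the GATA, 3 the EBF1, 2 the C/EBP and 0 the PU.1 motif. The GATA motif was also in 5 of 14 red cell membrane genes and in 3 of 7 class II genes. Of the same red cell membrane genes 2 held the EBF1, 1 the C/EBP and 0 the PU.1 motif. Of the class II genes 1 held the EBF1 motif and 0 the C/EBP or PU.1 motif. Among 18 secondary and tertiary granule genes with a window 8 held the C/EBP, 4 the PU.1, 2 the EBF1 and 2 the GATA motif. Of 20 B cell genes with a window 3 held the EBF1 motif, 3 the PU.1 motif, 3 the C/EBP motif and 1 the GATA motif. For 5 primary granule genes with a window the counts were 3 for PU.1, 1 for C/EBP, 1 for EBF1 and 0 for GATA. The percentages are shares of windows, whereas a listed gene was counted when any of its windows held the motif. A gene with several windows had more chances to match, so these counts and percentages are not like for like. A match describes letters in a window and does not show binding. A window without a match may still hold binding sites whose letters differ from these fixed motifs.

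Genes of the neutrophil granules were lower in anemia CD45+ cells throughout the lists. All 7 tested genes of primary granule proteins fell (median log2 fold change -5.78), with 17 of 20 secondary and tertiary granule genes (median -4.78), 14 of 21 genes of neutrophil receptors and maturation (median -3.09) and 6 of 8 S100 genes (median -2.24), and no member of these lists rose, except 1 S100 gene with the haemoglobin genes left out. Mpo encodes the myeloperoxidase of primary granules, which form in promyelocytes. It was at 12.9, 12.008 and 5.28 in anemia CD45+ cells and at 783, 626 and 445 in MDSC. The groups were far apart (log2 fold change -5.85, SE 0.36, adjusted p = 5.2e-05), with anemia CD45+ replicate 3 the lowest library. Elane (neutrophil elastase), Ctsg (cathepsin G) and Prtn3 (proteinase 3), the serine proteases of the same granules, had log2 fold changes of -5.63, -6.11 and -5.78, and Ms4a3, a membrane protein of granulocyte and monocyte progenitors, had -5.96.

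Secondary granules form later, at the myelocyte stage. Ngp, neutrophilic granule protein, was at 83.1, 43.6 and 82.7 in anemia CD45+ cells and 2882, 9999 and 3900.4 in MDSC. It was lower in every anemia CD45+ library (log2 fold change -6.15, SE 0.49, adjusted p = 1.3e-04), and within MDSC replicate 2 was the highest. Cd177, a surface protein of neutrophils also stored in their granules, was at 9.55, 5.05 and 15.1 in anemia CD45+ cells against 692, 805 and 772 in MDSC, without overlap (log2 fold change -6.23, SE 0.34, adjusted p = 3.9e-05). Lcn2, the siderophore-binding lipocalin, was at 63.7, 36.5 and 106 in anemia CD45+ cells and 3142, 4322 and 4327 in MDSC, with anemia CD45+ replicate 3 the highest of its group (log2 fold change -5.93, SE 0.37, adjusted p = 5.7e-05). Camp (cathelicidin), Ltf (lactoferrin) and Olfm4 (olfactomedin 4), all secondary granule proteins, had log2 fold changes of -5.42, -5.20 and -5.77.

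S100a8 and S100a9 form calprotectin, the abundant cytosolic protein of neutrophils and of granulocytic MDSC. S100a8 was at 247, 129.7 and 913 in anemia CD45+ cells and at 15127, 17354 and 23107 in MDSC. Anemia CD45+ replicate 3 was the highest of its group and still far below each MDSC library (log2 fold change -5.88, SE 0.65, adjusted p = 5.1e-04), with -6.66 without it and -5.26 without anemia CD45+ replicate 2. S100a9 fell by 5.81 on the log2 scale, with -6.71 without anemia CD45+ replicate 3 and -5.16 without anemia CD45+ replicate 2. S100a6 (-4.21) and S100a11 (-2.69), calcium-binding proteins of many cells, fell as well, while S100a4 (0.41, adjusted p = 0.24, limma) and S100a10 (0.20, adjusted p = 0.7) did not pass. The stefins are cysteine protease inhibitors. Stfa1 was listed at 0, 0 and 1.89 in anemia CD45+ cells and at 226, 180.1 and 175 in MDSC, and Stfa3 had a log2 fold change of -6.42. Counting between the near-identical stefin genes is uncertain. Lipg, endothelial lipase, was at 0.140, 0.204 and 0.754 in anemia CD45+ cells and 56.1, 87.3 and 115 in MDSC (log2 fold change -5.96, SE 0.31, adjusted p = 3.3e-05).

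Receptors of neutrophils differed within the anemia CD45+ group. Mmp25, a membrane-bound metalloproteinase of neutrophils, fell by 3.91 on the log2 scale in anemia CD45+ cells. Csf3r, the G-CSF receptor, was at 11.6, 9.66 and 126 in anemia CD45+ cells and 73.6, 126 and 81.3 in MDSC. Replicate 3 was within the range of the MDSC libraries, and the gene did not pass (log2 fold change -1.84, SE 0.90, adjusted p = 0.14, limma), while it passed without that library (-2.99). Cxcr2, the receptor for neutrophil-attracting chemokines, was at 3.77, 2.21 and 46.0 in anemia CD45+ cells and 63.0, 99.1 and 194 in MDSC (log2 fold change -3.59, SE 0.98, adjusted p = 0.023). It was -4.78 without anemia CD45+ replicate 3 and lost its call without anemia CD45+ replicate 1 (-3.13) or 2 (-2.85), or MDSC replicate 2 (-3.64) or 3 (-3.16). Without anemia CD45+ replicate 3, 18 genes of this list fell.

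**Figure D2:**
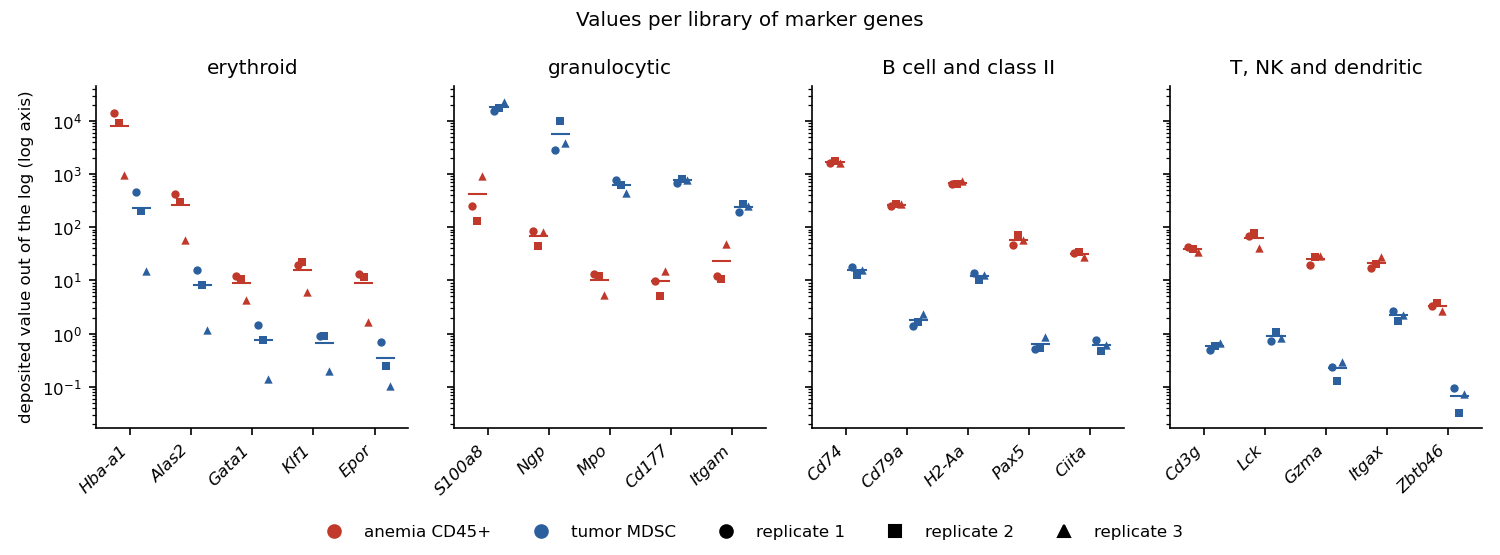
Expression values (log axis, scale not named in the sources) of 5 genes in each of 4 sets, erythroid, granulocytic, B cell and class II, and T, NK and dendritic cell genes, in each anemia CD45+ and MDSC library. Points are libraries with a marker for each replicate, bars are group means, and anemia CD45+ replicate 3 is the lowest of its group for the erythroid genes.

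Genes of B cells were higher in anemia CD45+ cells for 23 of 24 tested members (median log2 fold change 4.77), and the remaining one, the kinase gene Btk, did not pass. Cd79a, the signalling chain of the B cell receptor, was at 248, 278 and 271 in anemia CD45+ cells and 1.41, 1.66 and 2.38 in MDSC. The groups were separated in every library, with little spread within either (log2 fold change 6.58, SE 0.18, adjusted p = 7.9e-06). Cr2 (complement receptor 2, 6.38), Fcmr (the receptor for IgM, 5.80), Cd22 (an inhibitory coreceptor, 5.65) and Ms4a1 (CD20, 5.46) changed likewise. Pax5, the factor that keeps B cell identity, was at 45.9, 70.7 and 57.2 in anemia CD45+ cells and 0.507, 0.528 and 0.861 in MDSC, and Ebf1, which acts with it in early B cells, had a log2 fold change of 4.65. In the list of B cell precursors and plasma cells 6 of 7 tested genes rose (median 3.04). Irf4 (4.50) and Mzb1 (3.7), genes of plasma cell formation and antibody secretion, rose, while Xbp1, the secretory stress factor, fell by 1.48.

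All 10 tested genes of class II antigen presentation rose (median 4.99). Cd74, the invariant chain that guides class II molecules, was at 1594, 1772 and 1634 in anemia CD45+ cells and 18.1, 12.5 and 15.9 in MDSC. It had the largest gain of all genes named (log2 fold change 6.67, SE 0.18, adjusted p = 7.9e-06), and its 3 anemia CD45+ libraries averaged 1667 ± 93.8, against 15.5 ± 2.82 in the 3 MDSC libraries (SD, n = 3 each). H2-Aa, a class II alpha chain, was at 664, 649.8 and 736 in anemia CD45+ cells against 13.8, 10.2 and 12.8 in MDSC (log2 fold change 5.70, SE 0.17, adjusted p = 7.9e-06). Ciita, the coactivator that class II genes depend on, was at 33.1, 34.3 and 28.0 in anemia CD45+ cells and 0.752, 0.464 and 0.600 in MDSC, without overlap (log2 fold change 4.35, SE 0.18, adjusted p = 1.6e-05). H2-DMa (3.66), H2-DMb1 (3.42) and H2-Ob (5.65), which load and edit the peptides, rose as well.

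T cell genes rose in all 25 tested members (median log2 fold change 3.40), natural killer and cytotoxic genes in all 15 (median 2.36) and dendritic cell genes in all 13 (median 1.91). Cd3g, a chain of the T cell receptor complex, was at 42.4, 39.0 and 33.7 in anemia CD45+ cells and 0.490, 0.591 and 0.677 in MDSC (log2 fold change 4.63, SE 0.17, adjusted p = 1.3e-05). The kinase gene Lck had a log2 fold change of 5.01, and the coreceptor genes Cd4 and Cd8a had 4.09 and 3.14. Gzma, a granzyme of killer cells, was at 19.2, 27.5 and 29.3 in anemia CD45+ cells against 0.234, 0.131 and 0.298 in MDSC, with no overlap (log2 fold change 4.41, SE 0.21, adjusted p = 2.9e-05). Klrd1 (CD94, 3.51) and Prf1 (perforin, 2.35) rose too. Itgax, the CD11c chain, was at 16.9, 20.5 and 27.0 in anemia CD45+ cells and 2.65, 1.70 and 2.23 in MDSC (log2 fold change 2.80, SE 0.23, adjusted p = 1.4e-04), and Zbtb46, a factor of conventional dendritic cells, and Siglech, a marker of plasmacytoid ones, had 2.00 and 1.91. Gimap4, a GTPase of lymphocytes, was at 69.6, 74.4 and 53.4 in anemia CD45+ cells and 0.487, 0.253 and 0.902 in MDSC (log2 fold change 5.44, SE 0.23, adjusted p = 1.6e-05). In the list of class I presentation 12 of 13 genes rose (median 1.38), 8 under median-ratio scaling, among them H2-K1 (2.40), its partner B2m (1.60) and the class I coactivator Nlrc5 (3.40).

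Summed levels of the markers of cell types follow, each from the lowest to the highest library. The 6 B cell markers summed to 629 to 776.5 in anemia CD45+ cells and 6.20 to 10.5 in MDSC, and the 6 T cell markers to 129.6 to 217 in anemia CD45+ cells and 3.14 to 4.26 in MDSC. The 4 natural killer markers summed to 24.9 to 35.0 in anemia CD45+ cells and 6.72 to 11.4 in MDSC, and the 5 dendritic cell markers to 39.9 to 41.8 in anemia CD45+ cells and 4.07 to 6.83 in MDSC. No marker of any list was at 0 in all 3 libraries of a group. The 7 erythroid markers summed to 1862 to 23040 in anemia CD45+ cells and 48.3 to 743 in MDSC, and the 10 neutrophil markers to 434 to 2724 in anemia CD45+ cells and 41150 to 64360 in MDSC. The defining markers of both labelled cell types were thus present, while the anemia CD45+ libraries also held markers of B, T, natural killer and dendritic cells. The part of lymphocytes and dendritic cells in the class II, receptor and signalling genes was not tested. In bulk libraries fewer cells of a type and less RNA per cell cannot be told apart.

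Genes of monocytes and macrophages did not move one way. Of 23 tested, 6 rose, 7 fell and 10 did not pass (median -0.12, and 0.25 with the haemoglobin genes left out). F13a1 (coagulation factor XIII, -3.68), Fn1 (fibronectin, -3.21), Vcan (versican, -2.94) and Fcgr3 (an activating Fc receptor, -3.01) fell, while Ms4a7 (1.80), Ly86 (the partner of the receptor RP105, 1.89) and Adgre1 (F4/80, 1.85) rose. Ccr2, the receptor by which monocytes leave the marrow, was at 6.4026, 3.17 and 7.81 in anemia CD45+ cells and 8.81, 1.74 and 12.3 in MDSC and did not pass (log2 fold change -0.13, SE 0.60, adjusted p = 0.88, limma). The 5 monocyte markers summed to 60.3 to 117 in anemia CD45+ cells and 202 to 277 in MDSC. In the list of red pulp and tissue macrophages, which take up old red cells, 7 of 13 genes rose and none fell (median 1.53), with 4 rising without MDSC replicate 2 and 4 without MDSC replicate 3, and with 5 rising and 1 falling under median-ratio scaling. Cd5l, a secreted protein of macrophages, had a log2 fold change of 2.40, the scavenger receptor gene Marco 2.29 and the complement gene C1qc 1.81. The 6 macrophage markers summed to 109.6 to 143 in anemia CD45+ cells and 10.9 to 55.3 in MDSC.

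Eosinophil, basophil and mast cell genes passed in 3 of 10 cases. The interleukin 5 receptor gene Il5ra rose by 2.46 and Ms4a2, a chain of the IgE receptor, fell by 1.01 on the log2 scale in anemia CD45+ cells. The eosinophil granule gene Prg2 was at 16.7, 15.4 and 2.12 in anemia CD45+ cells and 194, 24.3 and 12.04 in MDSC and did not pass (log2 fold change -2.05, SE 1.09, adjusted p = 0.17, limma). Among 8 megakaryocyte and platelet genes 5 rose and 1 fell (median 1.00), with 3 rising without anemia CD45+ replicate 1 and 3 under quantile normalization. Vwf, von Willebrand factor, had 1.37 and the beta 3 integrin gene Itgb3 0.96, while Selp, P-selectin, had -1.46. Of 9 genes of early progenitors 3 rose and 3 fell, with 1 falling when either anemia CD45+ replicate 1 or MDSC replicate 2 was left out. Erg, an ETS factor of stem cells and endothelium, fell by 3.51 and the signalling receptor gene Slamf1 rose by 2.40, while Kit, the stem cell factor receptor, did not pass (0.25, adjusted p = 0.41, limma).

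Myeloid transcription factors were divided as well, with 3 of 12 higher, 4 lower and 5 not passing (median -0.03, and 0.35 with the haemoglobin genes left out). Only 2 fell without anemia CD45+ replicate 1, and 2 without replicate 2. Spi1 encodes PU.1, which directs myeloid and B cell fates and opposes GATA1. It was at 12.3, 18.6 and 26.4 in anemia CD45+ cells and 158, 162 and 108 in MDSC. The anemia CD45+ libraries were all lower, with replicate 3 the highest of them (log2 fold change -2.88, SE 0.30, adjusted p = 4.0e-04). Irf8, which favours monocytes, dendritic cells and B cells over granulocytes, was at 46.0, 78.0 and 34.6 in anemia CD45+ cells and 7.04, 6.29 and 4.36 in MDSC, the opposite direction (log2 fold change 2.91, SE 0.32, adjusted p = 5.0e-04). Gfi1, a repressor required for neutrophils, fell by 1.37 and Irf5 rose by 1.70.

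Genes listed for immune suppression went both ways. The list holds mediators of suppressor cells and also inhibitory receptors of lymphocytes, such as Btla and Tigit. Of 25 tested genes 10 rose, 8 fell and 7 did not pass (median 0.15, -0.11 under median-ratio scaling and -0.09 under quantile normalization). Nos2, the inducible nitric oxide synthase, was at 0.0339, 0.0185 and 0.186 in anemia CD45+ cells and 7.50, 10.7 and 8.18 in MDSC. It was lower in all anemia CD45+ libraries (log2 fold change -3.17, SE 0.20, adjusted p = 5.4e-05). Ptges, a prostaglandin E synthase (-1.88), Vsir, the checkpoint ligand VISTA (-2.18), Stat3 (-1.14) and Lgals3, galectin 3 (-3.01, and -3.65 without anemia CD45+ replicate 3), fell too. Arg1, an arginase used to define suppressive myeloid cells, was at most 0.131 in any of the 6 libraries and was not tested. Arg2, which encodes another arginase, was tested and did not pass (log2 fold change -1.58).

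On the other side, Btla, an inhibitory receptor of lymphocytes, was at 37.2, 39.8 and 69.5 in anemia CD45+ cells and 3.37, 1.64 and 3.50 in MDSC, with replicate 3 the highest (log2 fold change 3.68, SE 0.32, adjusted p = 1.9e-04). Cd274, the checkpoint ligand PD-L1, was at 19.6, 21.3 and 73.2 in anemia CD45+ cells and 2.02, 1.44 and 2.49 in MDSC. Every anemia CD45+ library was higher (log2 fold change 3.46, SE 0.49, adjusted p = 0.0015), with 2.86 without replicate 3, in which it was highest. Pdcd1lg2 (PD-L2, 1.51) and the T and NK cell receptor gene Tigit (2.23) rose as well. B and T cell marker sums, given above, were higher in the same libraries as Btla and Tigit, and their part in these genes was not tested.

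The phagocyte NADPH oxidase makes superoxide, a mediator of MDSC suppression. Of 9 tested genes 7 fell and none rose (median -1.53), with 6 falling and 1 rising both under quantile normalization and with the haemoglobin genes left out, and 1 rising without anemia CD45+ replicate 1 or without MDSC replicate 2. Cybb, its catalytic subunit, was at 53.5, 60.5 and 125 in anemia CD45+ cells and 373, 357 and 539.8 in MDSC, with anemia CD45+ replicate 3 the highest of its group (log2 fold change -2.47, SE 0.35, adjusted p = 0.0014). The membrane partner Cyba (-1.53) and the cytosolic subunits Ncf1 (-3.09) and Ncf4 (-2.29) fell. In leukotriene and prostaglandin synthesis 7 of 14 genes fell and 2 rose (median -0.90). Alox5, the 5-lipoxygenase, was at 2.87, 0.755 and 7.74 in anemia CD45+ cells and 75.9, 91.2 and 76.9 in MDSC (log2 fold change -4.40, SE 0.53, adjusted p = 7.4e-04). Its activating protein gene Alox5ap (-4.18), the leukotriene A4 hydrolase gene Lta4h (-2.89) and the cyclooxygenase gene Ptgs1 (-3.26) fell with it.

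**Figure D3:**
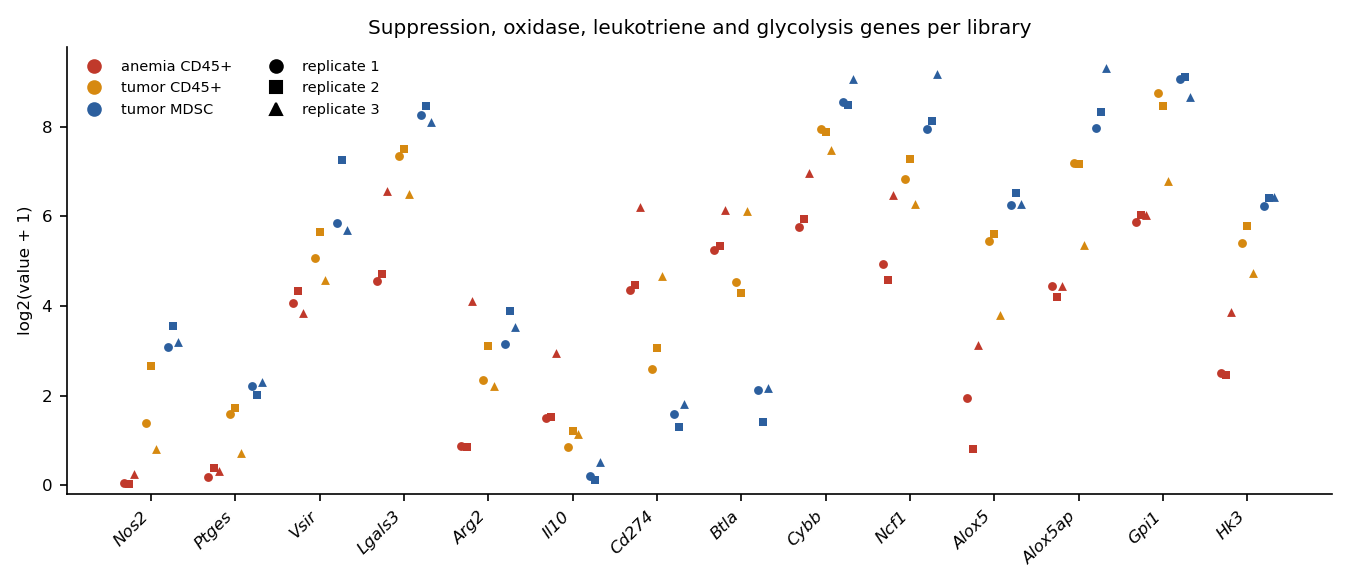
Levels of 14 genes of suppression, oxidase, lipid mediator and glycolysis pathways as log2(value + 1) in each anemia CD45+, tumor CD45+ and MDSC library. Points are libraries, with a marker for each replicate. Btla and Cd274 were higher in every anemia CD45+ library than in every MDSC library, and Nos2, Cybb and Alox5 were lower.

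Cytokine genes passed in 9 of 21 cases, 7 higher and 2 lower (median 0.30, and -0.10 under median-ratio scaling). Ccl5, a chemokine of T and NK cells, rose by 3.48 and Lta, lymphotoxin alpha, by 2.22, while the interleukin 6 family gene Osm fell by 3.93. Il1b was at 20.7, 15.7 and 314 in anemia CD45+ cells and 43.8, 61.9 and 81.9 in MDSC. Anemia CD45+ replicate 3 was above all MDSC libraries and replicates 1 and 2 were below them, and the gene did not pass (log2 fold change -0.34, SE 1.05, adjusted p = 0.81, limma). The neutrophil chemokine gene Cxcl2 had the same arrangement, with 6.09, 10.1 and 268 in anemia CD45+ cells and 34.9, 97.5 and 125 in MDSC (log2 fold change -1.47, SE 1.32, adjusted p = 0.4). Without replicate 3, Il1b had -1.69 and Cxcl2 -3.11 and both passed, and 5 cytokine genes of the list fell. Without anemia CD45+ replicate 2, 4 rose, and without anemia CD45+ replicate 1, MDSC replicate 1 or MDSC replicate 2, 1 fell. The summed neutrophil markers were also highest in anemia CD45+ replicate 3 within its group, at 2724, and their part in these values was not tested.

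Among the cytokine and chemokine receptors 8 of 29 rose and 8 fell (median 0.04, -0.27 under median-ratio scaling and -0.16 under quantile normalization), and the share that rose was near that of all tested genes (28.8%). Those that rose included Ccr6 (3.93) and Ccr7 (3.29), homing receptors of lymphocytes and dendritic cells, Il21r (4.25) and the common gamma chain gene Il2rg (3.31), and Il18rap (-2.70) was among those that fell. Of 22 pattern and Fc receptors 9 fell and 2 rose (median -0.81), with Pirb, an inhibitory receptor of myeloid cells, at -2.73, the lectin receptor gene Clec4a2 at -3.0 and Tlr3, a sensor of double-stranded RNA, at 1.96. NF-kB factors and inhibitors rose in 11 of 17 cases with none lower (median 1.23, and 1 lower without anemia CD45+ replicate 3), including the adaptor gene Traf1 (3.71), Relb (2.44) and Nfkb2 (1.96) of the alternative pathway, and the inhibitors Nfkbie (2.72) and Tnfaip3 (2.24). Nfkbia did not pass (-0.36, adjusted p = 0.67, limma). Immediate early genes rose in 7 of 18 cases and fell in 1 (median 0.50), with the phosphatase gene Dusp2 at 2.83 and the nuclear receptor gene Nr4a1 at 2.01. Of 23 genes of the interferon response 14 rose and 1 fell (median 1.42). The GTPase gene Gbp2 rose by 2.01 and the transcription factor gene Irf1 by 1.20 on the log2 scale. The gene that fell was Ifitm1, with -5.63, -4.99 without anemia CD45+ replicate 1, -4.96 without replicate 2, -6.95 without replicate 3 and -6.26 without MDSC replicate 3.

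Genes of glycolysis, the breakdown of glucose on which neutrophils rely, were mostly lower in anemia CD45+ cells. Of 21 tested 16 fell and 2 rose (median -1.91), and the number that fell was also 16 under median-ratio scaling, under which 1 rose, as it did with each of the 6 libraries left out in turn. Gpi1, which turns glucose phosphate into fructose phosphate, was at 57.4, 64.2 and 64.1 in anemia CD45+ cells and 538, 551 and 405 in MDSC, without overlap (log2 fold change -2.98, SE 0.18, adjusted p = 4.9e-05). The pyruvate kinase gene Pkm (-2.58), the hexokinase gene Hk3 (-3.42), the glucose transporter gene Slc2a3 (-2.74), Gapdh (-2.21) and Aldoa (-1.91) fell, while Pfkm (1.17), the muscle form of phosphofructokinase, rose. Antioxidant enzymes were even, with 5 of 17 higher and 5 lower (median 0.12, and -0.20 under median-ratio scaling). Cat, catalase, which is abundant in red cells, rose by 2.29, and Prdx2, the peroxiredoxin of red cells, by 2.60 (3.21 without anemia CD45+ replicate 3). Thioredoxin, Txn1, fell by 1.76, and Gsr, glutathione reductase, by 3.63 (-4.25 without anemia CD45+ replicate 3).

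Cell cycle genes fell in 14 of 34 cases and none rose (median -0.87), with 1 rising without MDSC replicate 1. The count depended on scaling and libraries, with 24 lower under median-ratio scaling, 9 lower and 2 higher with the haemoglobin genes left out, and 9 lower without MDSC replicate 1 or without MDSC replicate 2. Mki67, the Ki-67 antigen of cycling cells, was at 247, 215 and 55.0 in anemia CD45+ cells and 248, 214 and 286 in MDSC. Anemia CD45+ replicates 1 and 2 were level with MDSC, replicate 3 was lower, and the gene did not pass (log2 fold change -0.79, SE 0.54, adjusted p = 0.28, limma). Among the genes that fell were the kinase gene Plk1 at -1.88, Cdk1 at -1.72, cyclin Ccnb1 at -1.87 and the kinesin gene Kif20a at -1.96. Ribosomal protein genes rose in 17 of 40 cases (median 0.50), with 8 up and 2 down after median-ratio scaling, 28 higher under quantile normalization, 34 higher with the haemoglobin genes left out, 6 higher with all 21 libraries in the fit, 8 without anemia CD45+ replicate 1 and 9 without replicate 2.

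**Figure D4:**
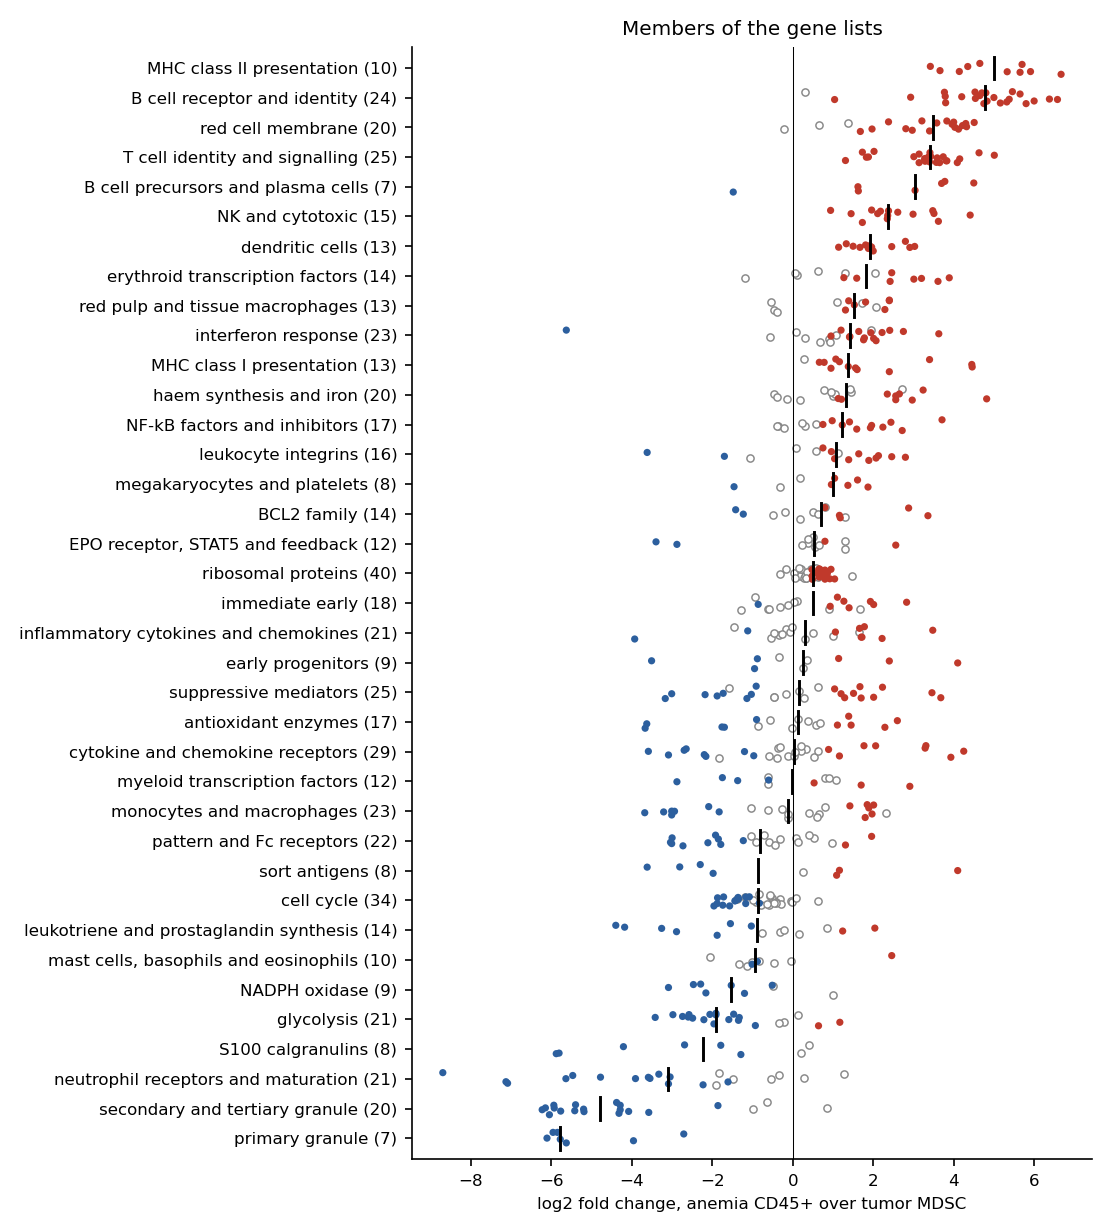
Log2 fold change (anemia CD45+ minus MDSC) of the tested members of the gene lists with at least 7 tested genes, a row for each list. Adult globins, with 4 tested genes, are not drawn. Red points passed and were higher, blue points passed and were lower, and open points did not pass. Black bars are medians, which lie at 4.99 for class II presentation and -5.78 for primary granule genes.

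Tumor-bearing mice also gave CD45+Ter119+CD71+ cells, called tumor CD45+ cells here, which share the sort with the anemia CD45+ cells and the status with the MDSC. Their values were set beside those of both groups in a fit of 9 libraries with 10656 genes tested by limma. Between anemia CD45+ and tumor CD45+ cells 673 genes passed (6.32%), 223 higher (2.09%) and 450 lower (4.22%). Between tumor CD45+ cells and MDSC 330 passed (3.10%), 307 higher (2.88%) and 23 lower (0.216%). These contrasts share libraries and are given side by side only. The spread of the tumor CD45+ libraries enters both. The shares of both contrasts are therefore not to be set against the 44.1% that passed in the fit of 6 libraries.

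Globin genes made up 14.9%, 9.94% and 1.29% of the summed values in anemia CD45+ replicates 1 to 3, 5.72%, 6.52% and 4.96% in tumor CD45+ replicates and 0.486%, 0.197% and 0.0264% in MDSC replicates. Hba-a1 was at 14307, 9260.5 and 959 in anemia CD45+ cells, 5709, 7042 and 3588 in tumor CD45+ cells and 458, 206 and 14.8 in MDSC. Its log2 fold change was -0.06 (adjusted p = 0.98) for anemia CD45+ against tumor CD45+ cells and 5.52 (adjusted p = 0.052) for tumor CD45+ cells against MDSC in the limma fit. Klf1 was at 5.12, 11.3 and 6.49 in tumor CD45+ cells, with 0.85 (adjusted p = 0.29) for anemia CD45+ against tumor CD45+ cells and 2.35 (adjusted p = 0.033) for tumor CD45+ cells against MDSC. A p above the threshold does not show that the groups were alike.

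The S100 genes made up 0.283%, 0.188% and 1.16% in anemia CD45+ replicates, 8.18%, 8.62% and 3.52% in tumor CD45+ replicates and between 12.9% and 19.1% in MDSC replicates. S100a8 was at 9329, 10058 and 3412 in tumor CD45+ cells, so that anemia CD45+ cells had -4.47 (adjusted p = 0.01) against them and they had -1.41 (adjusted p = 0.22) against MDSC. Mpo was at 12.9, 12.008 and 5.28 in anemia CD45+ cells, 965, 719.9 and 229 in tumor CD45+ cells and 783, 626 and 445 in MDSC. Tumor CD45+ and MDSC libraries overlapped for Mpo, with -5.70 (adjusted p = 0.0016) for anemia CD45+ against tumor CD45+ cells and -0.15 (adjusted p = 0.88) for tumor CD45+ cells against MDSC. Cd177 had -4.81 (adjusted p = 0.0021) in the anemia CD45+ against tumor CD45+ contrast and -1.41 (adjusted p = 0.11) in the tumor CD45+ against MDSC contrast.

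Class II genes made up 1.41%, 1.56% and 1.55% in anemia CD45+ replicates, 0.195%, 0.236% and 0.930% in tumor CD45+ replicates and 0.0235%, 0.0168% and 0.0192% in MDSC replicates. Cd79a was at 248, 278 and 271 in anemia CD45+ cells, 32.7, 44.6 and 172 in tumor CD45+ cells and 1.41, 1.66 and 2.38 in MDSC. Tumor CD45+ libraries lay between the other groups without overlapping either, with 2.05 (adjusted p = 0.046) for anemia CD45+ against tumor CD45+ cells and 4.53 (adjusted p = 0.0059) for tumor CD45+ cells against MDSC. Gzma was at 0.573, 0.588 and 2.54 in tumor CD45+ cells, with 3.65 (adjusted p = 0.0016) for anemia CD45+ against tumor CD45+ cells and 0.76 (adjusted p = 0.19) for tumor CD45+ cells against MDSC. Nos2 was at 1.64, 5.32 and 0.758 in tumor CD45+ cells, with -1.52 (adjusted p = 0.06) and -1.65 (adjusted p = 0.059) in the same order of contrasts, and Cd274 was at 5.08, 7.33 and 24.6, with 1.57 (adjusted p = 0.14) and 1.88 (adjusted p = 0.1). Neither gene passed in either contrast of the 9-library fit.

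**Figure D5:**
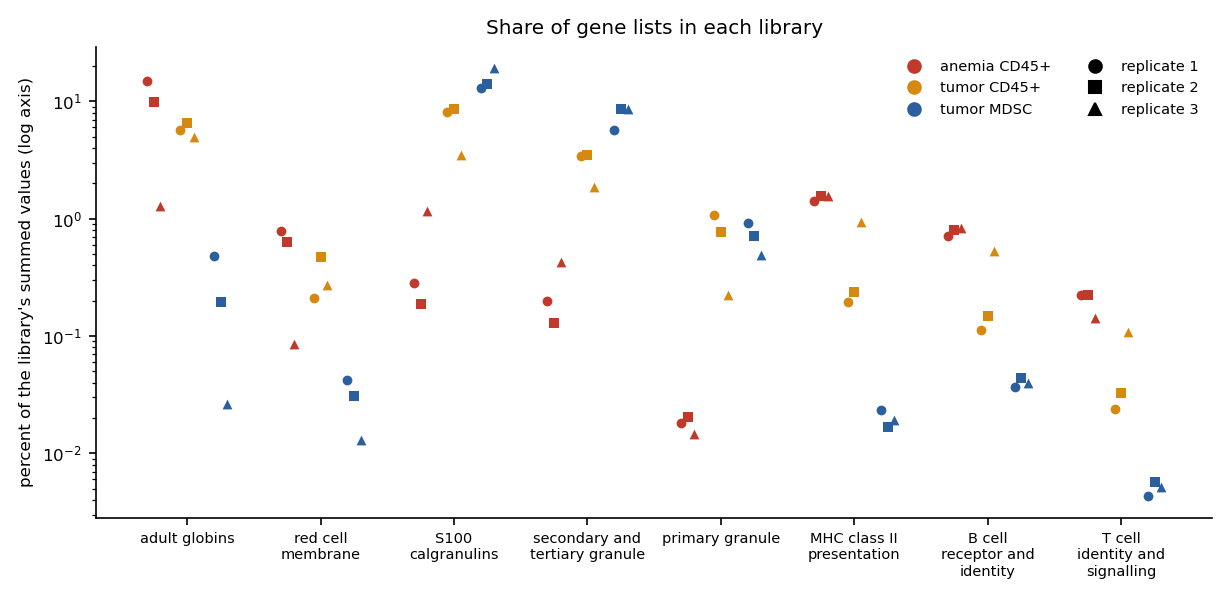
Share of each library's summed values (percent, log axis) held by 8 gene lists in the anemia CD45+, tumor CD45+ and MDSC libraries. Points are libraries, with S100 genes at 0.188 to 1.16% in anemia CD45+, 3.52 to 8.62% in tumor CD45+ and 12.9 to 19.1% in MDSC libraries.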

How the data were processed

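RNA was sequenced from sorted mouse spleen cells after TruSeq RNA library preparation from total RNA, per the labels' protocols. The submitters' processing notes name the aligner Bowtie 0.12.2 and the mouse build mm8. The authors deposited log2 expression values per gene, a column for each library, for 14273 genes. The quantification tool, annotation, scale, offset and depth are not given in the sources used here, so precision could be judged only from the 3 libraries of a group.

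Values were taken out of the log, and the blanks (6.63% of the cells in these 6 libraries) were set to 0. Genes reaching 1 in 3 or more of the 6 libraries were tested as log2(value + 1) in limma 3.58.1 (R 4.3.3, statmod 1.5.0; trend and robust options), two-sided, with Benjamini-Hochberg adjustment at 0.05 over all 10286 genes. The procedure was tested on simulated data, with values drawn independently for each gene and library and only a small part of the genes changed. The simulation held no outlying library and no scaling shift between groups, so it does not cover these features of the data. The fit of 9 libraries with tumor CD45+ cells was made alike. Exact zeros can be failed estimates, so 7 passing genes listed at 0 in a whole group were given no fold change. No scaling between libraries was added. Alternatives were other pseudocounts, filters, scalings, sets of libraries, the replicate number as a block, and leaving out each library. Values per gene were handled in Python 3.11.15 with pandas 2.3.3 and numpy 2.4.6 and drawn with matplotlib 3.10.9.

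The members, the 39 lists (666 of 682 genes were in the table) and the rule for named genes were chosen with earlier results of these data known. The rule took the 12 largest changes in each direction with no overlap and a higher group averaging 10 or more (without clone or locus numbers, dates and histones), all sort antigens and cell type markers, all members of lists of at most 12 genes, and of each longer list the 4 smallest adjusted p, the 3 largest passing changes in each direction and the 3 highest means. Some genes that the rule takes are not reported here. Promoters came from RefSeq (GRCm38.p6).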

Additional observations from a re-analysis of the deposited data

How the results depend on the processing

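The number of passing genes (4537) lay between 3203, with a filter at a value of 5 that tested fewer genes, and 5552, with the haemoglobin genes left out and equal sums. The number of higher genes was 1887 with the stricter filter and 4508 with the haemoglobin genes left out. The number of lower genes was 2402 with median-ratio scaling and 1044 with the haemoglobin genes left out. The cause of these shifts with scaling was not tested. Leaving out 1 library at a time gave 3454 to 4699 passing, 2253 to 2975 higher and 1201 to 1724 lower genes. Leaving out both replicates 3, an alternative chosen after seeing the data, gave 5128. Same-numbered libraries deviated together at correlations of 0.155, 0.098 and 0.331, and anemia CD45+ replicate 2 with MDSC replicate 1 at 0.232, so the numbers were not taken to pair the libraries. With the replicate number as a block 4763 genes passed, 3085 higher and 1678 lower. Of the 253 named genes that passed, 209 passed under all 19 alternatives in which they could be tested, and no named gene reversed. Depth is unknown and limits the low genes to an unknown degree, and 3 libraries a group of unstated origin limit all tests.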

Other observations

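Leukocyte integrins and their ligands were divided in the comparison of anemia CD45+ cells with MDSC, with 10 of 16 tested genes higher, 2 lower and 4 not passing in limma (median log2 fold change 1.08). Itgb7, the beta 7 chain of gut-homing lymphocytes, was at 49.3, 50.4 and 32.4 in anemia CD45+ cells and 6.94, 7.50 and 6.67 in MDSC. All anemia CD45+ libraries were higher (log2 fold change 2.46, SE 0.21, adjusted p = 1.8e-04). Itgae (2.07), a partner of that chain, and the adhesion molecule genes Icam1 (2.13) and Icam2 (1.64) rose as well. Itgb2, the beta 2 chain that pairs with CD11b, was at 65.3, 76.4 and 118 in anemia CD45+ cells and 258, 297 and 269 in MDSC, lower in every anemia CD45+ library (log2 fold change -1.70, SE 0.24, adjusted p = 0.0015). Itgal, the CD11a chain of the same family, did not pass (0.09, adjusted p = 0.78, limma).

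In the BCL2 family of cell death regulators 5 of 14 genes rose and 2 fell (median 0.70), and 2 rose under quantile normalization. Bcl2a1d, an antiapoptotic member with near-identical copies, was at 11.2, 9.83 and 28.0 in anemia CD45+ cells and 0.389, 0.279 and 0.991 in MDSC (log2 fold change 3.36, SE 0.40, adjusted p = 7.3e-04). Bad, a proapoptotic member, was at 4.43, 2.50 and 2.85 in anemia CD45+ cells and 12.5, 12.5 and 6.78 in MDSC (log2 fold change -1.42, SE 0.29, adjusted p = 0.0072). The groups did not overlap for either gene. Mcl1 (-0.49, adjusted p = 0.17, limma) and Bcl2l11, which encodes BIM (0.50, adjusted p = 0.3), did not pass.

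Anemia CD45+ libraries were also set beside the CD45- cells of the same Ter119 and CD71 sort from mice with anemia, with no test. Cd79a was at 248, 278 and 271 in anemia CD45+ cells and 2.13, 2.92 and 0.527 in anemia CD45- cells. S100a8 was at 247, 129.7 and 913 in anemia CD45+ cells and 3.72, 2.52 and 3.05 in anemia CD45- cells. Hba-a1 was at 14307, 9260.5 and 959 in anemia CD45+ cells and 45282, 37496 and 8990.3 in anemia CD45- cells. The sorts did not overlap for Cd79a or S100a8, and for Hba-a1 replicates 1 and 2 of the anemia CD45+ cells lay above replicate 3 of the anemia CD45- cells.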
